A study of Homo sapiens with 2 samples.

Results

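The clustered histone genes encode the bulk histones H1, H2A, H2B, H3 and H4, and they were examined here in Calu-3 cells, a human lung adenocarcinoma line that forms epithelial sheets. Members were all probe sets annotated to a gene whose current symbol is H1-1 to H1-6 or begins with H2AC, H2BC, H3C or H4C. They named 64 of 21357 genes on the array and came to 71 of 54613 non-control probe sets, of which 51 named 1 histone gene and 20 named several. The stretched culture grew on collagen-coated flexible plates to about 80% confluence and was then kept for 18 h under cyclic strain that peaked at 20% and returned to 0.7%, with 2 s of strain and 2 s of rest, in medium with 10% serum. The non-stretched culture carried the same 18 h label without stretch, and its label repeats the same plating and medium. Each condition was 1 array, so no difference below has a replicate check, an error between cultures or a test, and each one compares these 2 arrays.

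Bulk histones wrap newly copied DNA into nucleosomes, the octamers of H2A, H2B, H3 and H4, which H1 then bridges. Their genes lie in clusters, mostly on the short arm of chromosome 6 with a smaller group on chromosome 1, and are known to be transcribed mainly in S phase. Their messages have no introns and end in a stem-loop bound by SLBP instead of a poly(A) tail, although several of the genes are also known to give polyadenylated transcripts. The manufacturer's standard labelling, which the labels name without details, generally primes on poly(A) tails; its part in the values below was not tested.

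The RefSeq table holds 70 member genes that are not pseudogenes. On the array 43 of these had a probe set of their own, 19 were named only on a probe set shared by several genes, and 8 had no probe set naming them (H2AC1, H2AC20, H2AC21, H2BC18, H2BC26, H3C13, H3C14 and H3C15). The pseudogenes H2AC5P and H4C10P also had a probe set each. H2BC12L fits the symbol rule but lies on chromosome 21, apart from the clusters. H3-4, whose older symbol begins with HIST3 but whose current one is outside the rule, was at 6.03 in the stretched and 23.3 in the non-stretched array and was not counted.

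Most chromosome 6 histone genes share a small set of promoter elements, which are shown for H2AC6, H2BC5 and H4C8, whose signals were lower in the stretched array, and for H2BC12, which differed little. The promoter table matched 64 member genes, each with 250 bases before and 50 after the start. The letters CCAAT or their reverse ATTGG stood in all 51 windows of H1, H2A, H2B and H3 genes and in 3 of 13 H4 windows, against 35.7% of 27305 promoters of all genes. The letters TATAA or TTATA stood in 59 of the 64 windows, against 21.1% of all promoters. The octamer ATTTGCAT or its reverse ATGCAAAT, the letters bound by OCT1 in H2B genes, stood in 14 of 18 H2B and 11 of 16 H2A windows, in 1 of 11 H3 windows and in no H1 or H4 window, against 1.80% of all promoters; the 3 searches share no full motif, though single bases can overlap. The stretches below are RefSeq sequence of GRCh38.p14, read 5′ to 3′ on the gene's strand and ending at the base before its start, with those letters in capitals. H2AC6 (+ strand, chr6:26123927-26124171) is the whole interval between its start and that of H2BC4, which is read in the opposite direction. H2BC5 (+ strand, chr6:26157921-26158120), H4C8 (- strand, chr6:26285535-26285734) and H2BC12 (- strand, chr6:27146859-27147058) are the 200 bases before each start.
H2AC6: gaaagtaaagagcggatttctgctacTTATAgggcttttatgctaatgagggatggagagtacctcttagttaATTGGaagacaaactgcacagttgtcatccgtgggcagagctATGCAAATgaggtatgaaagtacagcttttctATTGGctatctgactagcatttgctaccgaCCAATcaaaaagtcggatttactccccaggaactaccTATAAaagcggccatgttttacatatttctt
H2BC5: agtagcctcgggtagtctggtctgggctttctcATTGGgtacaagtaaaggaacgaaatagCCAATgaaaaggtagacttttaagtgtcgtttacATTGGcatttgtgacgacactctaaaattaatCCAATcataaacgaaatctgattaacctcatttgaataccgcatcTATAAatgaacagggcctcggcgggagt
H4C8: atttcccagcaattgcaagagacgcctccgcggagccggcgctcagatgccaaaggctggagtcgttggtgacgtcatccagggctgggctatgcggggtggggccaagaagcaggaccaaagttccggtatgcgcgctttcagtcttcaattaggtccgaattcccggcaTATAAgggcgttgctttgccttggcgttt
H2BC12: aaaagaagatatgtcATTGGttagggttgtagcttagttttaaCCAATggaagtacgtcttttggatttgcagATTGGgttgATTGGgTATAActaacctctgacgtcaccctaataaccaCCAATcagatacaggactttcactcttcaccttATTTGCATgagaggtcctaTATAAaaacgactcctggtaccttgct
The interval between H2AC6 and H2BC4 held 1 octamer, 3 CCAAT boxes and 2 TATA cores, 1 close to each start. The H2BC5 stretch held 4 CCAAT boxes and no octamer, the H2BC12 stretch 5 CCAAT boxes and 1 octamer, and the H4C8 stretch only a TATA core.

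Values are the deposited signal intensities, and differences are log2 stretched minus log2 non-stretched. Signals below an array's 50th percentile (28.4 stretched, 28.7 non-stretched) were set to that floor, and probe sets above it in either array counted as measured. Of the 51 single-gene probe sets, 29 were measured, for 26 genes, and 23 of them lay above the floor in both arrays. The 22 others, which reached at most 24.7 in the stretched and 21.9 in the non-stretched array, were the only probe sets of H1-1, H1-5, H1-6, H2AC4, H2AC5P, H2AC14, H2AC16, H2BC1, H2BC3, H2BC14, H2BC15, H3C1, H3C2, H3C3, H3C11, H4C1, H4C4, H4C10P and H4C13, and a further probe set each of H2AC15 and H2AC25. No difference is given for them.

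Clustered histone probe sets were more often lower than higher in the stretched array. Of the 29 measured, 9 (31.0%) were at least 2-fold lower, in 7 genes (H2AC6, H2BC4, H2BC5, H2BC17, H3C6, H4C5 and H4C8). Among all 29259 measured probe sets 6.25% were that much lower. Only the H1-3 probe set (3.45%) was at least 2-fold higher, against 8.43% of all measured probe sets. The members' median log2 difference was -0.35 and 22 of the 29 lay below 0, while over all measured probe sets the median was 0.04 and 46.6% lay below 0. Since 6 of the 29, H4C5 among them, were measured in 1 array only, the 23 above the floor in both arrays were also counted, with 8 lower, 1 higher and 19 below 0, against 6.11% lower and 8.54% higher among all probe sets that met this condition. Centring the arrays on the hybridisation spike-ins moved the median of all measured probe sets to 0.20, with 4.68% lower and 11.7% higher, and the members to a median of -0.19 with 7 lower and 1 higher, H4C5 and H2BC17 then lying at -0.88 and -0.91. With the floor raised to the 75th percentile, 14 single-gene members stayed measured and 3 of them were lower, against 4.09% of all probe sets measured that way. Those 3 belonged to H2AC6 and H2BC5, so that 2 of the 7 lower genes kept the call, and H2BC17 and H4C5 were no longer measured. For H2BC4, H3C6 and H4C8 the raised floor replaced the stretched signal. Their differences there, under 2-fold, are bounds that cannot show whether the call holds. With no floor all 7 genes were lower. A single probe set's difference had an SD of 0.36, estimated from the brightest pair of probe sets of each of 5818 genes, which leaves out variation between cultures.

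**Figure D1:**
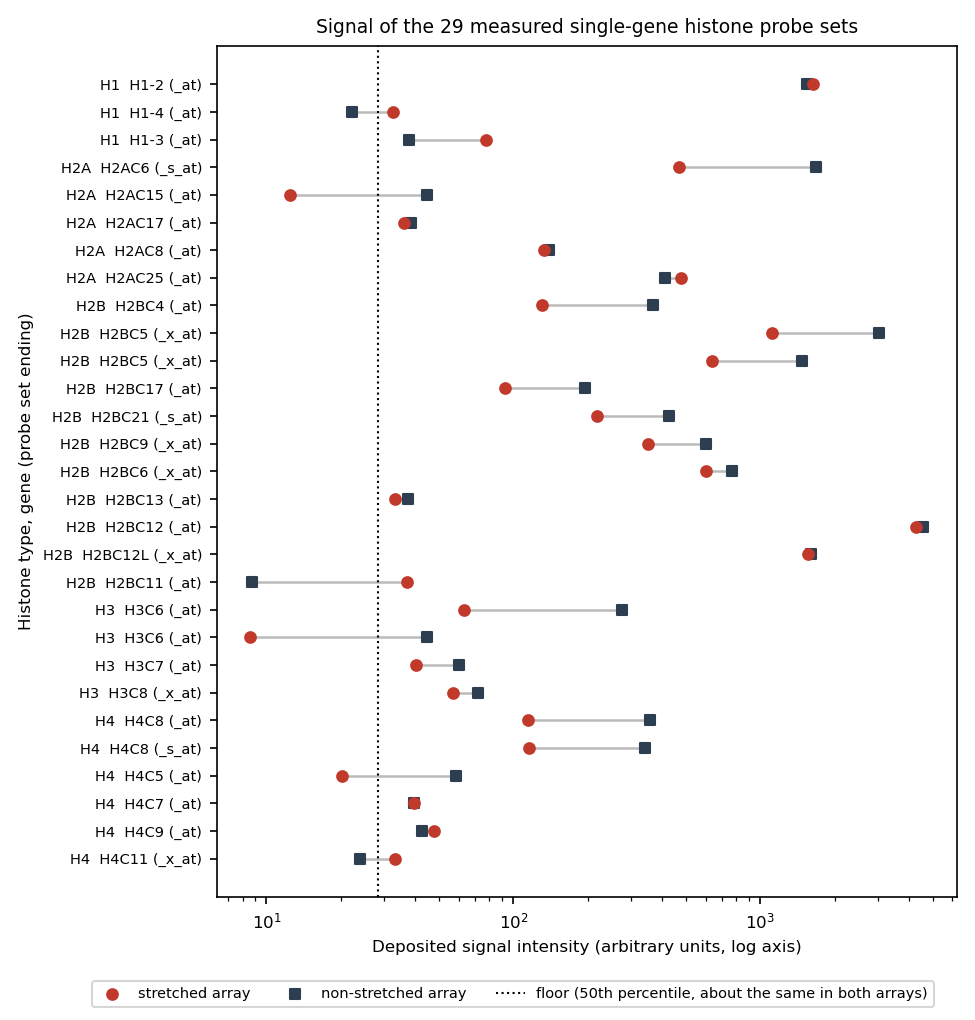
Deposited signal of each measured single-gene histone probe set (log axis, arbitrary units) in the stretched array (circles) and the non-stretched array (squares), grouped by histone type, with the floor as a dotted line. H2AC6, H2BC5, H2BC4, H3C6 and H4C8 sit well left in the stretched array, while H1-2 and H2BC12 nearly coincide.

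Among the linker histones, which bind the DNA entering and leaving the nucleosome, no measured probe set was lower. H1-2 had a signal of 1629 in the stretched and 1541 in the non-stretched array, a difference of 0.08 whose sign changes with the scaling. H1-3 stood at 77.1 in the stretched and 37.7 in the non-stretched array, 2.05-fold higher. H1-4 exceeded the floor only under stretch, at 32.5 against 22.3 in the non-stretched array, and so was at least 1.13-fold higher. With the arrays centred on their 75th percentiles H1-3 was under 2-fold, at 0.93 on the log2 scale. H1 was thus the type without a lower call, from 3 probe sets of which 2 lay near the floor.

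H2A, which pairs with H2B, was split between H2AC6 and the rest. H2AC6 had a signal of 467 in the stretched and 1687 in the non-stretched array, 3.61-fold lower, by a probe set ending in _s_at, which can bind related transcripts. The other measured H2A probe sets lay within 2-fold. H2AC25, a chromosome 1 gene, was at 477 in the stretched and 412 in the non-stretched array, and H2AC8 was at 133.2 in the stretched and 139.7 in the non-stretched array. H2AC17 was at 35.9 in the stretched and 38.4 in the non-stretched array. The differences of H2AC8 and H2AC17, at -0.07 and -0.10, change sign with the scaling. H2AC15 lay below the floor under stretch, at 12.5 in the stretched and 44.8 in the non-stretched array, and so was at least 1.58-fold lower.

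H2B had the most measured probe sets, 11 for 10 genes, with 10 below 0, a median of -0.78 and 4 calls, all lower. The calls were in H2BC4, H2BC5 and H2BC17, and H2BC5 counted with both of its probe sets. Among all measured probe sets 6.25% were lower and 46.6% lay below 0. Of the 11 H2B probe sets, 5 remained without those ending in _s_at or _x_at, and their median was -0.18. H2BC5 was lower in both of its probe sets, which end in _x_at: the first was at 1118 in the stretched and 3020 in the non-stretched array, 2.70-fold lower, and the second at 640 in the stretched and 1469 in the non-stretched array, 2.29-fold lower. H2BC4 was at 130.5 in the stretched and 369 in the non-stretched array, 2.83-fold lower. The floor at the 75th percentile replaced its stretched signal and left only a bound of -0.57 on the log2 scale. H2BC17 was at 92.6 in the stretched and 194.1 in the non-stretched array, 2.10-fold lower. The 2-fold limit itself exceeds 2 SDs of a single probe set, so that SD adds no support to these calls. It also leaves out variation between cultures.

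H2BC21, a chromosome 1 gene, fell just short of the 2-fold limit, at 218.5 in the stretched and 427 in the non-stretched array, 1.95-fold lower, and passed it at -1.08 on the log2 scale with the arrays centred on their 75th percentiles or the loess trend removed. H2BC9 was at 350 in the stretched and 601 in the non-stretched array, 1.72-fold lower, and H2BC6 was at 601 in the stretched and 765 in the non-stretched array, 1.27-fold lower. The remaining H2B genes differed little. H2BC12 was at 4266 in the stretched and 4575 in the non-stretched array and H2BC12L at 1555 in the stretched and 1603 in the non-stretched array; their differences of -0.10 and -0.04 change sign with the scaling. H2BC13 was near the floor, at 33.1 in the stretched and 37.6 in the non-stretched array. H2BC11 was the exception in sign, exceeding the floor only under stretch, at 37.3 against 8.78 in the non-stretched array, and at least 1.30-fold higher.

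H3, whose tail carries many regulatory marks, was below 0 in all 4 measured probe sets, with a median of -0.62. Among all measured probe sets 46.6% lay below 0. One H3C6 probe set was at 63.4 in the stretched and 274.5 in the non-stretched array, 4.33-fold lower, the largest difference among the 23 above the floor in both arrays. This difference was -2.11 on the log2 scale, and the same with no floor. The floor at the 75th percentile replaced the stretched signal and left a bound of -0.14. That bound cannot show whether the call or the rank holds. The other H3C6 probe set lay below the floor under stretch, at 8.60 in the stretched and 44.8 in the non-stretched array, and so was at least 1.58-fold lower. H3C7 was at 40.3 in the stretched and 60.2 in the non-stretched array and H3C8 at 57.1 in the stretched and 72.2 in the non-stretched array, both within 2-fold and not far above the floor.

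H4, most of whose many genes encode 1 and the same protein, was split by gene. Both H4C8 probe sets were lower: the one ending in _at was at 114.2 in the stretched and 358 in the non-stretched array, 3.13-fold lower, and the one ending in _s_at at 115.4 in the stretched and 342 in the non-stretched array, 2.96-fold lower. The floor at the 75th percentile replaced both stretched signals and left bounds of -0.52 and -0.46 on the log2 scale. These are under 2-fold and cannot show whether the calls hold. H4C5 lay below the floor in the stretched array, at 20.3 against 58.4 in the non-stretched array, and was at least 2.06-fold lower. H4C7 was at 39.6 in the stretched and 39.8 in the non-stretched array, with no stable sign across scalings, and H4C9 at 47.8 in the stretched and 42.8 in the non-stretched array. H4C11 exceeded the floor only under stretch, at 33.3 against 24.0 in the non-stretched array, although the accession of its probe set belongs to H4C12 in RefSeq. The median of the 6 H4 probe sets was -0.52, and it was -0.01 when each gene was counted once.

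**Figure D2:**
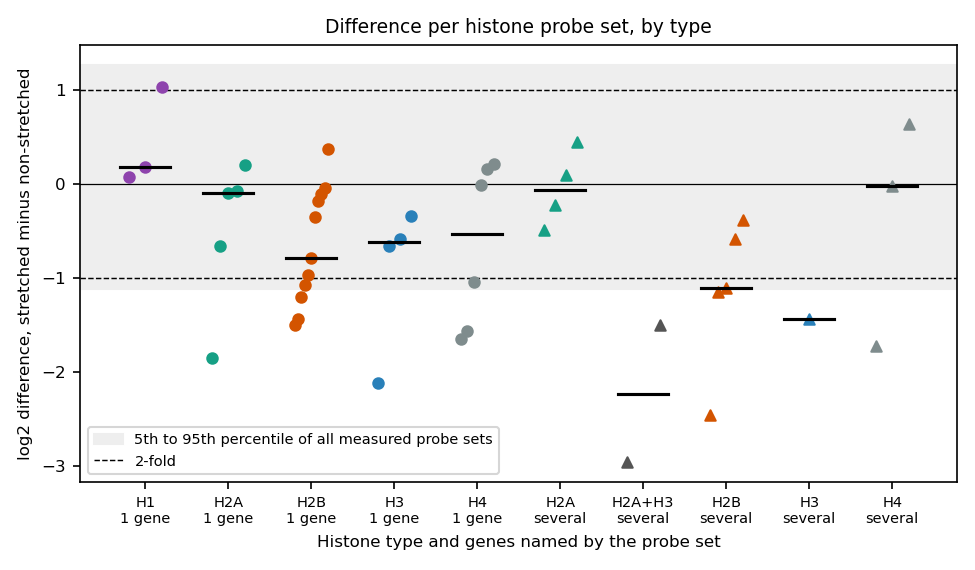
Log2 difference (stretched minus non-stretched) of each measured histone probe set by type, for probe sets naming 1 gene (circles) and several (triangles), with medians as bars, 2-fold limits dashed and the 5th to 95th percentile of all measured probe sets in grey. Every H3 point and all but 1 of the single-gene H2B points lie below 0, and the H1 points lie above it.

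Probe sets that named several histone genes cannot be given to 1 gene, and they are described apart. Of 20, 15 were measured, all above the floor in both arrays, with 7 at least 2-fold lower, none higher, and -0.59 as the median difference. Among all 1145 measured probe sets naming several genes, 6.99% were lower and 7.60% higher. Centring on the spike-ins left 5 of the 7 lower, and the floor at the 75th percentile left 8 measured and 1 lower. Where a call was lost, that floor had replaced the stretched signal or left the probe set unmeasured. The 5 at the floor in both arrays listed H4 genes in 3 cases, H3 genes in 1 and H2A genes in 1. A probe set listing 14 H4 genes, built on the RefSeq transcript of H4C3, was at 8806 in the stretched and 5661 in the non-stretched array, 1.56-fold higher. Another listing the same 14 genes, built on H4C14, was at 68.5 in the stretched and 225.0 in the non-stretched array, 3.29-fold lower, and the one built on H4C11 was at 79.4 in the stretched and 80.4 in the non-stretched array, again without a stable sign across scalings. Probe sets with 1 and the same list of H4 genes therefore spanned a difference of 0.64 to one of -1.72.

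For H3 and H2A together, the probe set listing 10 H3 genes with H2AC7, built on H3C4, was at 30.2 in the stretched and 234.2 in the non-stretched array, 7.75-fold lower but close to the floor. A probe set for H3C4 and H2AC7, built on H2AC7, was at 67.5 in the stretched and 191.3 in the non-stretched array, 2.83-fold lower. The probe set listing 10 H3 genes, built on H3C10, was at 75.4 in the stretched and 204.0 in the non-stretched array, 2.70-fold lower. All 3 were thus lower, 2 of them built on an H3 gene and 1 on an H2A gene.

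The 5 probe sets for several H2B genes were all below 0. That for H2BC8 and H2BC11 ending in _at was at 98.5 in the stretched and 541 in the non-stretched array, 5.50-fold lower, and its counterpart ending in _s_at at 105.4 in the stretched and 226.3 in the non-stretched array, 2.15-fold lower, or -0.94 on the log2 scale with spike-in centring. Of the 3 listing H2BC4, H2BC6, H2BC7, H2BC8 and H2BC10, that built on H2BC4 was at 178.8 in the stretched and 396 in the non-stretched array, 2.22-fold lower (-0.99 on the log2 scale with spike-in centring), and the others differed by -0.59 and -0.38. The chromosome 1 pair H2AC18 and H2AC19, which shares 3 probe sets, differed by 0.10, 0.46 and -0.49, the first, whose sign changes with the scaling, at 2145 in the stretched and 1997 in the non-stretched array. A probe set listing 6 H2A genes of chromosome 6 was at 56.6 in the stretched and 65.7 in the non-stretched array. Of the 4 measured probe sets listing only H2A genes none was called, and of the 5 listing only H2B genes 3 were lower. Among all measured probe sets naming several genes 6.99% were lower. With spike-in centring, only the H2B probe set for H2BC8 and H2BC11 ending in _at stayed over 2-fold lower.

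Probe set design and signal moved with these counts. Of the 10 measured single-gene probe sets ending in _s_at or _x_at, 4 were lower, none was higher and the median was -0.87, against 5.84% lower and 7.62% higher among all measured probe sets with those endings. Of the 19 ending in _at, 5 were lower and 1 higher, with a median of -0.10, against 6.51% lower and 8.93% higher among all measured probe sets without the _s_at and _x_at endings. Of the 16 single-gene members with a signal of at least 100 in either array, 8 were lower and none higher, against 7.47% and 10.3% of all such probe sets. Of the 13 dimmer ones, 1 was lower and 1 higher, against 3.68% and 4.38%. The part of cross-binding probes in the counts was not tested.

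The positions of the genes were set beside their differences. On chromosome 6 the RefSeq gene order gives a stretch before BTN3A2, a middle stretch and a stretch from ZNF184 on. The first held 18 of the 26 measured single-gene probe sets, for 15 genes, with 8 lower, 1 higher and a median of -0.72. H2BC5, H3C6 and H4C8 entered the 18 with 2 probe sets each, of which H3C6 had 1 among the 8 lower and the other genes both. Among all measured probe sets 6.25% were lower and 8.43% higher. The middle one held H2BC11, H2BC12 and H4C9, with no call and a median of 0.16. The last held 5, with H2BC17 lower and a median of -0.18. Apart from H2BC12 and H2BC17, the probe sets of the middle and last stretches were under 100 in both arrays and mostly near the floor. The calls of the stretches can therefore not be compared evenly. Chromosome 1 had only H2AC25 and H2BC21, neither of which passed 2-fold.

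H2A and H2B genes of chromosome 6 often stand head to head over a shared promoter, and 9 such pairs had overlapping promoter windows. In 2 of them both genes had a measured probe set of their own. H2AC6 and H2BC4 differed alike, by -1.85 and -1.50 on the log2 scale. H2AC17 and H2BC17 did not, with -0.10 for H2AC17, near the floor, and -1.07 for H2BC17. The octamer stood in 2 of the 3 lower H2B genes, being absent for H2BC5, and in 5 of the 6 within 2-fold that had a promoter window.

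**Figure D3:**
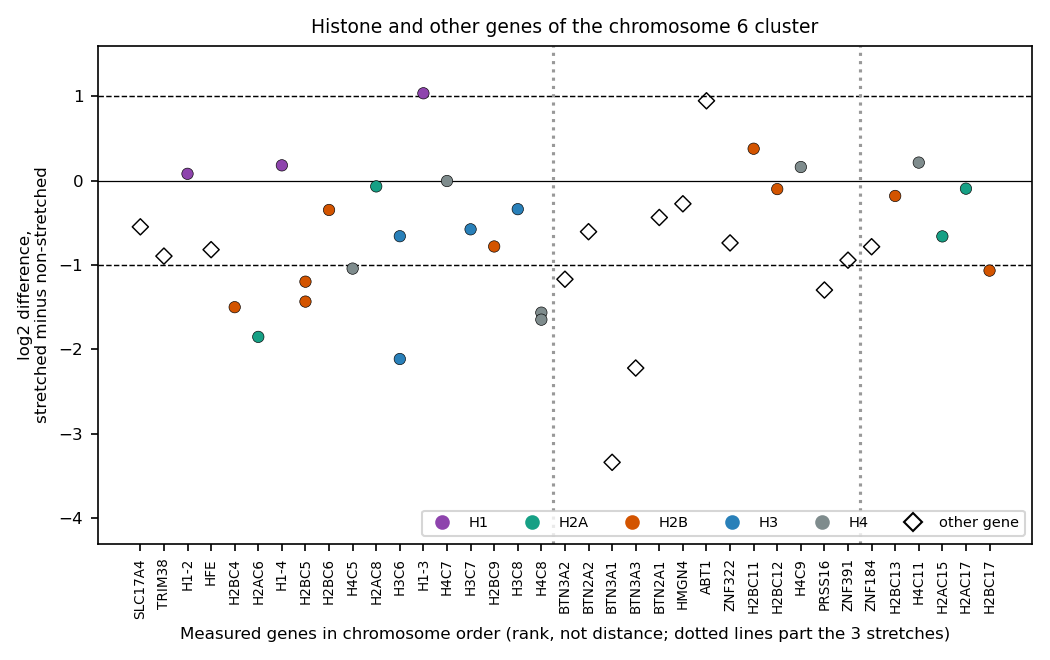
Log2 difference (stretched minus non-stretched) of measured histone probe sets (filled circles, coloured by type) and of other protein-coding genes (open diamonds, brightest probe set) of the chromosome 6 cluster, in chromosome order by rank. Of the 9 lower histone probe sets, 8 stand in the leftmost stretch, which holds 18 of the 26 drawn, and 13 of the 14 diamonds lie below 0.

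Other protein-coding genes inside the same chromosome 6 interval lay mostly below 0, and some of them were at least 2-fold lower. Of 19, 18 were named on the array and 14 measured; 4 passed 2-fold downwards by their brightest probe set, none upwards and 10 lay within 2-fold, with 13 below 0 (median -0.80). Over all 13453 measured genes, 7.49% were that much lower, 7.78% that much higher, and the median was 0.01. The butyrophilins BTN3A1, BTN3A3 and BTN3A2, membrane proteins known for activating gamma delta T cells, lay at -3.34, -2.22 and -1.17. The probe set behind the BTN3A1 value was near the floor in the stretched array, at 32.8 against 331 in the non-stretched array, and the other measured BTN3A1 probe set lay at -1.005. PRSS16, a thymic serine protease, was at 432 in the stretched and 1061 in the non-stretched array, 2.46-fold lower, and ABT1, a nucleolar protein, was the exception at 997 in the stretched and 518 in the non-stretched array, 1.93-fold higher. The zinc finger gene ZNF391 lay at -0.94.

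Genes of histone message synthesis, processing and decay, counted with the cyclin E and CDK2 genes, stood mostly above 0. Of 24 measured, by the brightest probe set of each gene, 9 were at least 2-fold higher, none was lower and 21 lay above 0, with a median of 0.69. Among all measured genes 7.78% were that much higher and 7.49% that much lower. SLBP, which binds the stem-loop of histone messages, was at 3281 in the stretched and 1504 in the non-stretched array, 2.18-fold higher. CASP8AP2 (FLASH) and LSM11, which recruit the cleavage complex to histone pre-mRNA, were 2.27-fold and 2.11-fold higher, and the cleavage factor CSTF2 2.29-fold higher. ERI1, the exonuclease that trims and degrades the stem-loop, was 2.25-fold higher, at 845 in the stretched and 375 in the non-stretched array. NPAT, the histone locus activator driven by cyclin E and CDK2, was at 359 in the stretched and 328 in the non-stretched array, a difference of 0.13, while its kinase subunits CCNE2, CCNE1 and CDK2 were 8.97-fold, 8.24-fold and 3.93-fold higher. CCNE2 is also counted among the S phase genes below. SRRT (ARS2), a cap-binding partner, was 2.30-fold higher. Other measured probe sets of LSM11, CSTF2 and SRRT reached down to 0.65, 0.85 and 0.01, within 2-fold. HINFP, the activator of H4 promoters, lay at -0.49. The exonuclease XRN1 lay at -0.53 by its brightest probe set and at -1.28 by the lowest of its 3, which is over 2-fold lower.

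No measured histone gene outside the clusters was 2-fold lower by its brightest probe set. Of 9 measured variants, 2 were at least 2-fold higher, none was lower and the median was 0.36. The shares over all measured genes were 7.78% higher and 7.49% lower. CENPA, the centromeric H3, was at 542 in the stretched and 154.4 in the non-stretched array, 3.51-fold higher. H2AX, which marks DNA breaks, was at 2453 in the stretched and 819 in the non-stretched array, 2.99-fold higher, and the lowest of its 3 probe sets was at 0.62. H2AZ1, H2AJ and MACROH2A1 lay at 0.36, 0.47 and 0.41, and MACROH2A2 at 0.18. Of the probe sets shared by H3-3A and H3-3B, the genes of the replacement histone H3.3, all but 1 lay between -0.15 and 0.16, and the remaining one at 1.61.

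Of 24 measured chaperones and deposition factors, which carry histones to DNA, 7 were at least 2-fold higher by the brightest probe set, none was lower and the median was 0.49. Over all measured genes 7.78% were higher and 7.49% lower by that limit. ASF1A, a chaperone of H3 and H4 like ASF1B, lay at -0.62 by its brightest and at -1.31 by its other probe set. ASF1B was at 1552 in the stretched and 213 in the non-stretched array, 7.30-fold higher. CHAF1A and CHAF1B, subunits of the CAF-1 complex that loads H3 and H4 behind the fork, were 6.51-fold and 4.32-fold higher, and HJURP, the chaperone of CENPA, 6.47-fold higher. TONSL exceeded the floor only under stretch and was at least 3.25-fold higher, and NASP was 2.68-fold higher; the lowest of their 3 probe sets each lay at 0.48 and 0.99. For comparison, all 19 measured S phase genes passed 2-fold upwards by their brightest probe set, with a median of 2.24, although another probe set of GINS2 lay at -0.33. The members' values thus did not run with those of these groups, and the difference between groups was not tested. In a bulk sample, fewer cells in a phase and less RNA per cell cannot be told apart.

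**Figure D4:**
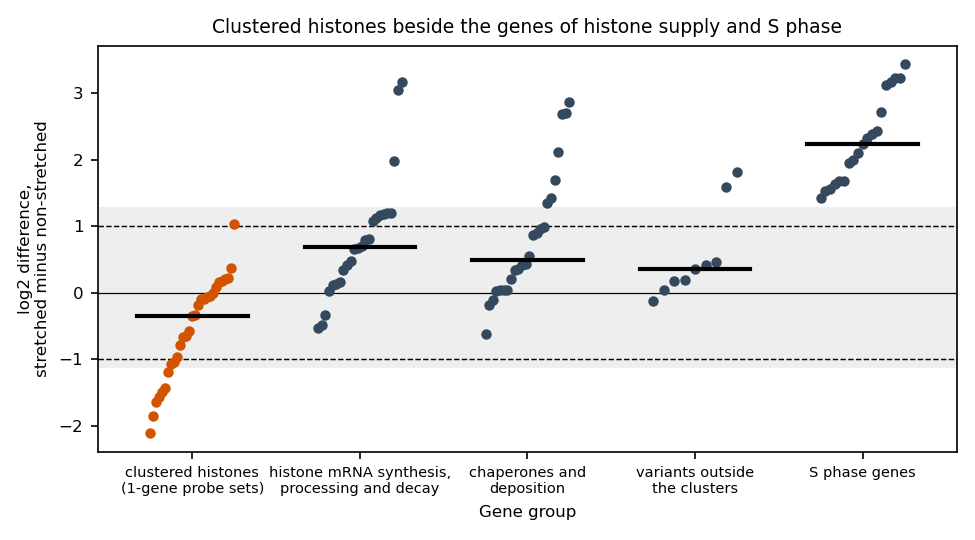
Log2 difference (stretched minus non-stretched) of the measured single-gene histone probe sets and of 4 gene groups, each point a probe set or a gene by its brightest probe set, with medians as bars, 2-fold limits dashed and the 5th to 95th percentile of all measured probe sets in grey. The histone median lies at -0.35 and the 4 other medians between 0.36 and 2.24. CCNE2 is drawn both in the histone message group and among the S phase genes.

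Of 6 member genes for which polyadenylated transcripts are known in human cells, H2AC6, H2BC4 and H2BC5 were among the lower genes, H2BC21 lay just under the limit, and H1-2 and H2BC12 differed by 0.08 and -0.10. Their median was -1.20 with 5 of 6 below 0, although the sign of H2BC12 changes with the scaling. The 26 measured member genes, these 6 included, had a median of -0.26 with 1 value per gene. Over all measured genes the median was 0.01, with 49.5% below 0 and 7.49% at least 2-fold lower. Whether these 6 differ from the other members was not tested.

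Both arrays had medians near 28 over non-control probe sets, differing by -0.02 on the log2 scale, and were used as deposited. Hybridisation spike-ins had a median difference of -0.11 (range -0.23 to -0.03 over 18 probe sets). All 8 epithelial markers examined were measured, with KRT8 at 10913 in the stretched and 9458 in the non-stretched array. CFTR and ELF3 were at least 2-fold lower. Of 10 leukocyte, fibroblast and endothelial markers on the array, 5 were measured, the brightest being COL1A1 at 105.5 in the stretched and 126.0 in the non-stretched array.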

How the data were processed

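Total RNA of 1 stretched and 1 non-stretched Calu-3 culture was measured on Affymetrix arrays from 6 µg each, labelled with biotin, per the labels' protocols. The deposited table holds 1 linear signal intensity per probe set and array; how the authors summarised and scaled the probes is not given in the sources used here. Genes were named from the platform annotation through gene IDs to RefSeq symbols (GRCh38.p14 table; 41091 probe sets with 1 gene, 1801 with several, 11721 unnamed), and promoters came from RefSeq of that build. Histone probe sets naming 1 gene were analysed apart from those naming several. Intensities were converted to log2, floored at the 50th percentile and called at 2-fold; a bound is written "at least". Genes of the other lists are represented by their brightest probe set. No test between conditions was possible with 1 array per group, and the number of arrays limits the precision. Every measured single-gene member is named; of other lists, up to 6 genes with the largest difference, SLBP, NPAT, and a few more chosen after their values were seen (HINFP, XRN1, ASF1A, GINS2, LSM11, ERI1, KRT8 and the H3-3A and H3-3B probe sets). The members and lists were chosen with earlier results of these data known. Python 3.11.15 with pandas 2.3.3 and statsmodels 0.14.6 (loess, fraction 0.3) was used, and the scripts were tested on simulated data. Alternatives changed the floor, the scaling, the probe set endings and the number of probe sets per gene.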

Additional observations from a re-analysis of the deposited data

How the results depend on the processing

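The cause of the changes below was not tested unless stated. With the floor at the 75th percentile, which leaves 14 single-gene histone probe sets, 3 were lower (H2AC6 and both H2BC5 probe sets) and 0 higher. H1-3, the 1 higher member in the main counts, fell below that floor in both arrays and was not measured. The H2A and H3 medians were -0.82 (2 probe sets) and -0.14 (1 probe set). The H3 value is a bound, because that floor replaced the stretched signal of H3C6. There the probe set listing 10 H3 genes with H2AC7 turned to 0.0886, because its stretched signal was replaced by a floor above its non-stretched one. With no floor, 2 were higher, and the H1 and H3 medians were 0.54 and -1.35, the first being the H1-4 value, which the floor otherwise makes a bound of 0.18. Centring on the 75th percentile left 0 higher. Without probe sets ending in _s_at or _x_at, 5 were lower, the H2B median was -0.18, the median of probe sets naming several genes -1.43 and that of the chaperones 0.90. With 1 value per gene the H4 median was -0.0055. The median of the single-gene histone probe sets stayed below 0 under all 7 alternatives but ranged between -0.49 and -0.10, -0.10 being the value without probe sets ending in _s_at or _x_at. No paired analysis was possible because each condition has 1 array. The main limits are the single array per condition, probe sets that may bind several near-identical histone transcripts, and signals near the floor for many H1, H3 and H4 genes.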
